A study of Arabidopsis thaliana with 2 samples.

Results

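nad4 and cox1 are genes of the mitochondrial genome of Arabidopsis thaliana, and both read several-fold brighter with RNA from pavement cell sap than with RNA from trichome sap. They were chosen from 16 mitochondrion-encoded genes that have a probe set paired with a single gene, out of 13356 such genes in all, and they were chosen because of the very difference described here. Their values are therefore given as a description, with no test. The study used 2 Affymetrix arrays of accession Columbia-0, 1 for sap from leaf trichomes (surface hairs that are each a single cell) and 1 for sap from pavement cells (the ordinary covering cells between hairs and stomata). The plants were 5 weeks old, had grown at 20 °C and 18 °C with 16 h of light and 8 h of dark, and carried no transgene or treatment that the labels name. Sap was drawn with microcapillaries, and its RNA was amplified in 1 round before labelling with biotin. Each group holds 1 array, so nothing below could be checked against replicates, and precision is limited by there being 2 arrays.

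Mitochondria make most cellular ATP by passing electrons along a chain of membrane complexes. Complex I takes electrons from NADH, complex IV (cytochrome c oxidase) hands them to oxygen, and both pump protons as they do so. Their membrane cores are encoded in the mitochondrion, while most of the surrounding subunits are encoded in the nucleus and imported, so each complex is assembled from the products of both genomes. NAD4 is a proton-pumping subunit of the membrane arm of complex I. COX1 is the catalytic subunit of complex IV, which holds the haem and copper site where oxygen is reduced. Plant mitochondrial transcripts carry few stable poly(A) tails, and the labelling kit named in the labels is one for 3′ amplification.

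Values are log2 signals as deposited, so a difference of 1 is 2-fold, and differences are given as trichome minus pavement. A reading at or under 2.58, the highest among 27 control probe sets for Bacillus transcripts, was treated as background. Of all genes, 15.9% read above this ceiling on the pavement array, 12.2% on the trichome array and 8.53% on both. The trichome array was dimmer for the added hybridisation controls too: all 18 of these probe sets read lower on it, by a median difference of -3.15. Probe sets for plant control RNAs also read lower on it, with differences of -4.05 for the 25S rRNA, -3.82 for the 3′ end of ubiquitin and -1.72 for its 5′ end, which was at background in trichome. Those of the 25S rRNA and the 3′ end of ubiquitin are lower than the differences of nad4 and cox1 given below, and their part in those was not tested. With 1 array of bulk sap per group, a dimmer array, fewer cells sampled, less sap per cell and less transcript per cell cannot be told apart.

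nad4 read 3.83 in trichome and 7.41 in pavement. The difference of -3.58 is 12.0-fold in favour of pavement, and both readings stood clear of the ceiling, by 1.24 and 4.83. On the trichome array 2.16% of all probe sets were brighter than nad4, and on the pavement array 1.14% were. Of the 8168 genes whose higher reading reached 2.05, the median over every value on both arrays, 119 had a lower difference than nad4. Many of these 8168 were at background on an array. Among the 1139 genes above background on both arrays, as nad4 was, 92 had a lower difference.

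cox1 read 2.74 in trichome and 5.52 in pavement. The difference of -2.78 is 6.85-fold in favour of pavement. The trichome reading lay 0.16 above the ceiling, so cox1 was barely measured above background there, while the pavement reading lay 2.94 above it. On the trichome array 10.1% of all probe sets were brighter than cox1, and on the pavement array 2.55% were. A lower difference was found for 204 of the 8168 genes, and for 147 of the 1139 genes above background on both arrays.

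The differences of nad4 and cox1 were 0.81 apart. As a measure of technical error, the differences of the 18 hybridisation control probe sets ran from -3.54 to -1.935. Another is how far the differences of several probe sets for 1 gene lie apart. This spread had a pooled SD of 0.95 in 36 genes that had at least 1 probe set above background. The gap between nad4 and cox1 was within the spread of 0.95, so no order between them was detectable. Each difference was larger than the spread, but both genes were picked for their differences, so nothing is read from that. The spread leaves out the error of sampling, amplification and plants. It also cannot register a shift between the arrays, such as the median difference of -3.15 of the hybridisation controls. nad4 and cox1 each rest on 1 probe set, of a type the annotation pairs with the mitochondrial gene alone.

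**Figure D1:**
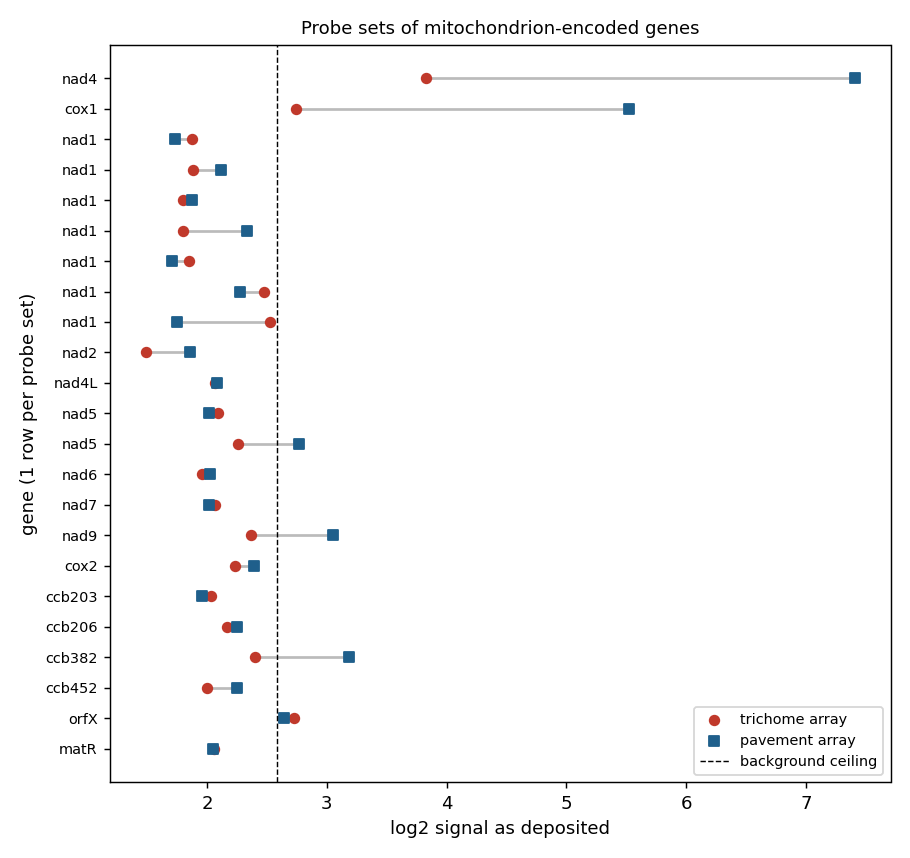
Log2 signal (x axis) of the 23 probe sets paired with a single mitochondrion-encoded gene, 1 row per probe set. Circles are the trichome array, squares the pavement array, and the dashed line is the background ceiling of 2.58. nad4 and cox1 are the rows with a wide gap, and most other probe sets lie left of the line on both arrays. Signals of different probe sets are not comparable as amounts.

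Among the other measured nad genes, which encode further subunits of complex I, only nad9 read above background as a gene. The named set holds 8 nad genes with nad4. nad9, a subunit of the peripheral arm, read 2.37 in trichome and 3.05 in pavement. Its difference of -0.68 is at least 1.38-fold when the trichome reading is raised to the ceiling. nad5, a proton-pumping subunit like nad4, had 2 probe sets, of which 1 read 2.26 in trichome and 2.77 in pavement and the other read 2.09 and 2.01. As a mean over both, nad5 was at background on each array.

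The remaining nad genes were at background on both arrays. nad1, the subunit at the junction of the membrane and peripheral arms, had 7 probe sets with readings of 1.80 to 2.53 in trichome and 1.70 to 2.33 in pavement, and their differences ran from -0.53 to 0.78. nad2 read 1.49 and 1.85, nad4L 2.06 and 2.08, nad6 1.96 and 2.02, and nad7 2.07 and 2.02, each given as trichome and then pavement. nad7 is a subunit near the quinone site, and nad2, nad4L and nad6 are membrane subunits. The transcripts of nad1, nad2 and nad5 are joined from separate pieces by trans-splicing, and no source used here gives the place of each probe set along these genes. The 7 nad genes other than nad4 had a median difference of -0.07, and none of them differed by 2-fold.

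Of the cox genes, only cox2 was measured beside cox1 by a probe set of its own. cox2 encodes the subunit that receives electrons from cytochrome c. It read 2.23 in trichome and 2.39 in pavement, at background on both arrays. A probe set paired jointly with a further complex IV gene of the mitochondrion and a nuclear gene read 1.62 and 2.25, also at background. cox1 was thus the single complex IV gene of the mitochondrion with a reading above background among these probe sets.

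Outside complexes I and IV, 6 mitochondrion-encoded genes were named, and 2 of them read above background in pavement. ccb382, a gene of cytochrome c maturation, read 2.40 in trichome and 3.18 in pavement, and so was at least 1.52-fold higher in pavement. orfX, whose product resembles a membrane protein transporter, read 2.73 in trichome and 2.65 in pavement, just above the ceiling on both arrays and nearly even between them. The other maturation genes ccb203, ccb206 and ccb452 were at background, as was matR, an intron maturase gene, with differences of 0.07, -0.09, -0.25 and 0.01. orfX is the next protein-coding gene after nad4 in the order of the RefSeq mitochondrial genome, and ccb452 (there called ccmFC) is the one before it. nad4 was thus bright between neighbours that read near or at background. Beside cox1 in that order lie nad1, at background, and a ribosomal protein gene with no probe set of its own.

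In all, 12 of the 16 mitochondrion-encoded genes had a reading at or above 2.05, and 2 of them, nad4 and cox1, were 2-fold or more higher in pavement. Over all genes at or above that value 8.31% were higher in pavement by 2-fold and 1.19% in trichome. Among the 1139 genes above background on both arrays, as nad4 and cox1 were, 31% were 2-fold or more higher in pavement. The median difference of those 1139 genes was -0.37. No mitochondrion-encoded gene was 2-fold higher in trichome. Since nad4 and cox1 were picked by this contrast, nothing is read from their share. The median difference was -0.12 over the 16 genes and -0.08 over the 14 without nad4 and cox1, against 0.02 over all genes. Above background in pavement were 5 of the 16, which include the picked nad4 and cox1, and 3 of the 14 others. Those 3 are 21.4% of the 14, near the 15.9% over all genes, so nothing is read from that count. With the ceiling set at 2.21, the next highest Bacillus reading, 9 of the 16 were above it in pavement, and so were 30.8% of all genes.

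**Figure D2:**
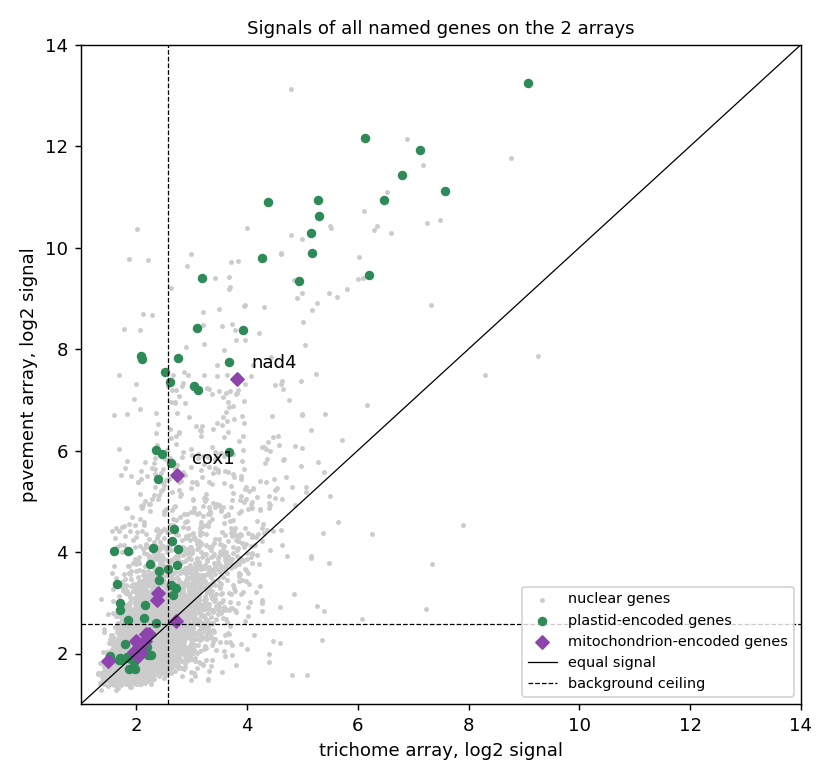
Log2 signal of each named gene on the trichome array (x axis) and on the pavement array (y axis), with nuclear genes as grey points, plastid-encoded genes as green circles and mitochondrion-encoded genes as purple diamonds. The solid line marks equal signal and the dashed lines the background ceiling of 2.58. nad4 and cox1 lie above the line of equal signal among plastid-encoded and nuclear genes, and the other mitochondrion-encoded genes lie near the lower left corner.

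Among genes with a probe set of their own, as deposited, signal above background that was higher in pavement covered more plastid-encoded than mitochondrion-encoded genes. Of 69 plastid-encoded genes, 57 reached 2.05 on an array, 44 were higher in pavement by 2-fold or more, and none was so in trichome. Over all genes that reached 2.05 the shares were 8.31% in pavement and 1.19% in trichome. Their median difference was -1.71 over all 69, against 0.02 over all genes. It was -4.40 over the 31 that were above background on both arrays, against -0.37 over all 1139 such genes. Among these 31, which ran from -6.53 to -0.49, 20 had a lower difference than nad4 and 23 a lower one than cox1. The lowest differences outside the ndh genes were those of psbZ (4.37 in trichome and 10.9 in pavement), petB (3.19 and 9.41) and psaB (6.14 and 12.2), which belong to photosystem II, to the cytochrome b6f complex and to photosystem I in turn. The highest were those of atpI (0.30), psbN (0.13) and petN (0.08), all 3 at background on both arrays. Over all 69, which include 18 at background on both arrays, 24 had a lower difference than nad4 and 29 a lower one than cox1. nad4 and cox1 thus lay inside the range of the plastid-encoded genes, and no replicate bears on their place in it.

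The plastid ndh genes are the closest relatives of the nad genes, since the plastid NDH complex and mitochondrial complex I descend from a common bacterial enzyme. ndhD, the relative of nad4, read 3.67 in trichome and 7.74 in pavement. Its difference of -4.07 is 0.49 from the one for nad4, less than the spread between probe sets. ndhJ, the relative of nad9, read 2.36 and 6.02, at least 10.8-fold higher in pavement. ndhC read 7.12 and 11.9, and its mitochondrial relative nad3 was not analysed here. ndhI and ndhK, whose mitochondrial relatives are nuclear genes, also read higher in pavement, at 7.82 against 2.75 in trichome for ndhI and at 5.98 against 3.67 for ndhK.

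The ndh genes that read at background were relatives of nad genes that also did, apart from nad5, which did so only as the mean of its 2 probe sets. ndhA, ndhE, ndhF, ndhG and ndhH, relatives of nad1, nad4L, nad5, nad6 and nad7 in that order, read from 1.69 to 1.97 in pavement and from 1.83 to 2.27 in trichome. Of 9 related pairs, 7 had both genes measured singly. Taken as means over the probe sets of a gene, both genes were above background in pavement in 2 of these pairs and neither was in 5. This split rests on the averaging of nad5, since 1 of its probe sets read 2.77 in pavement while ndhF read 1.69, and the mean of nad5, 2.39, also exceeds a ceiling of 2.21. This pairing was examined after the values were known, it rests on 7 pairs, and whether it has a cause in the samples or in the place of the probe sets was not tested.

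**Figure D3:**
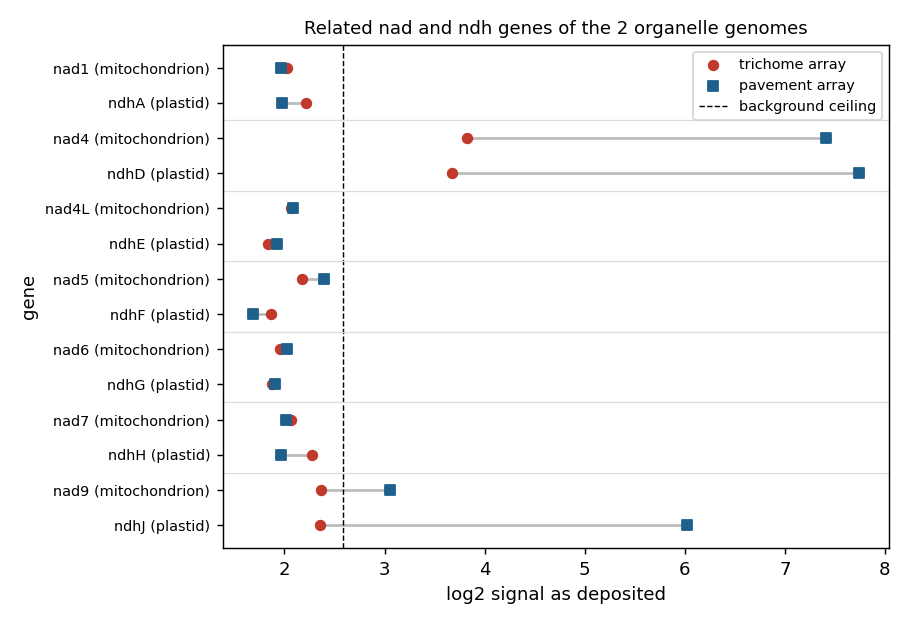
Log2 signal (x axis) of the 7 related pairs of a mitochondrial nad gene and a plastid ndh gene, with circles for the trichome array, squares for the pavement array and a dashed line at the background ceiling of 2.58. nad4 with ndhD and nad9 with ndhJ have pavement readings above the line, and both genes of the other 5 pairs lie left of it on both arrays. Points are means over the probe sets of a gene; for nad5 1 of 2 probe sets, not drawn here, read 2.77 in pavement, to the right of the line.

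The nuclear genes whose products join NAD4 and COX1 in the respiratory chain were described from a list by function, chosen with earlier results of these data known. nad4 and cox1 were picked for their differences, so the sizes of the differences are not set against each other. Of 65 listed nuclear genes, 32 were measured, 28 reached 2.05, 3 were higher in pavement by 2-fold or more, and none was so in trichome. Their median difference was -0.21, against 0.02 over all genes. At 3 of 28 that count is near the 8.31% over all genes, so nothing particular to the list is read from it. Above background on at least 1 array were 12, of which 5 were so in pavement alone, and these 5 had to read higher there. The other 20 of the 32 were above background on neither array, as were 10732 of all 13356 genes. For the 7 that both arrays measured above background, differences ran from -2.01 to -0.09. The median over all 1139 genes above background on both arrays was -0.37.

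For complex I, 5 of 14 listed nuclear genes were measured. AT4G02580, a subunit of the NADH-oxidising module, read 2.33 in trichome and 4.19 in pavement, at least 3.05-fold higher in pavement. AT5G11770, the subunit next to the quinone site, read 3.14 and 3.47, and GLDH, an enzyme of vitamin C synthesis that also serves complex I assembly, read 2.83 and 2.92. AT2G20360 read 2.50 and 2.73, and FRO1 was at background on both arrays. AT4G02580 alone among these 5 passed 2-fold in the direction of nad4.

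For complex IV, 8 of 13 listed nuclear genes were measured and 4 were above background, all on both arrays. AT2G47380, a subunit Vc gene, read 3.03 in trichome and 5.04 in pavement. Its difference of -2.01 is 4.02-fold in favour of pavement. AT3G62400 read 4.08 and 4.95, AT4G37830, a subunit VIa gene, 4.98 and 5.70, and AT3G15640, a subunit Vb gene, 3.61 and 3.70. These 3 had differences of -0.86, -0.71 and -0.09, all under 2-fold.

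Between complexes I and IV, the electron carrier gene CYTC-1 read 2.45 in trichome and 3.63 in pavement, at least 2.07-fold higher in pavement, and its copy CYTC-2 was at background. The cytochrome c1 gene AT5G40810 read 3.14 and 3.56, and the complex III genes MPPBETA and AT4G32470 read 3.06 and 2.80 in pavement with trichome at background. All 4 measured genes of complex II, and all 5 of the alternative NAD(P)H dehydrogenases, were at background on both arrays. So were the mitochondrial RNA polymerase gene AT5G15700 and the intron maturase gene AT5G46920, the 2 measured of 6 genes listed for mitochondrial transcription and the processing of nad4 transcripts.

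**Figure D4:**
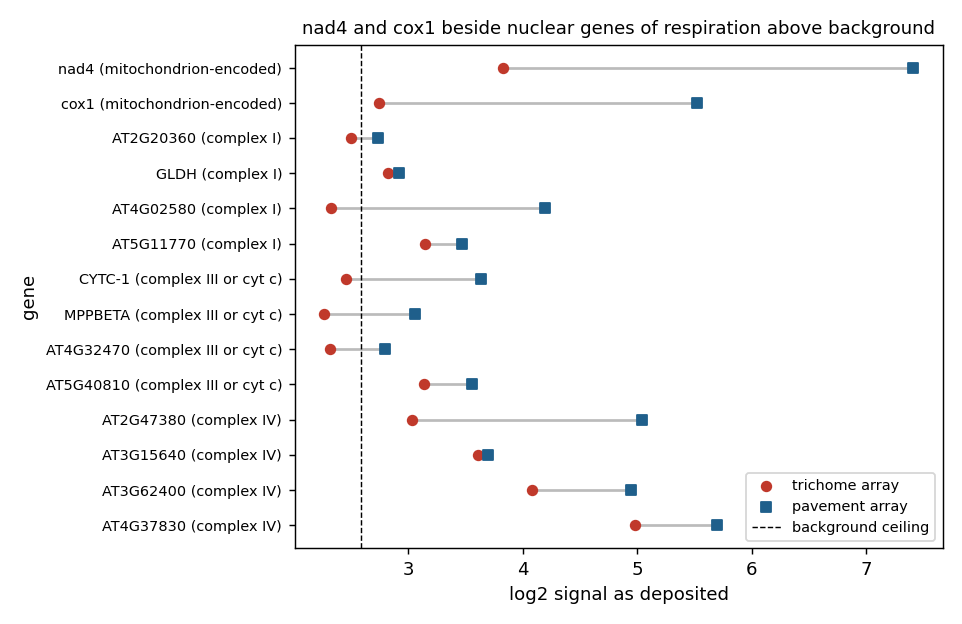
Log2 signal (x axis) of nad4 and cox1 and of the 12 nuclear genes of complexes I, III and IV and cytochrome c above background on at least 1 array, with circles for trichome, squares for pavement and a dashed line at the ceiling of 2.58. Among the nuclear genes the gap is wide for AT4G02580, AT2G47380 and CYTC-1, and the circles of 5 of the 12 lie left of the line.

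The genes closest to nad4 and cox1 in their 2 readings, by straight-line distance on the log2 scale, were all nuclear. For nad4 they were AT1G36980 (3.82 in trichome and 7.44 in pavement), AT2G29020 (3.84 and 7.48), AT5G02870 (3.96 and 7.31), AT2G14910 (3.65 and 7.50) and DI19 (3.84 and 7.20), at distances of 0.03 to 0.21. For cox1 they were AT3G44100 (2.77 and 5.47), AT5G02450 (2.66 and 5.49), AT5G19240 (2.85 and 5.58), AT5G35970 (2.70 and 5.64) and AT5G38510 (2.81 and 5.40), at distances of 0.06 to 0.13. AT5G02870 and AT5G02450 encode cytosolic ribosomal proteins, and DI19 is a drought-induced zinc finger protein. Likeness over 2 arrays says only that such pairs of readings also occurred for nuclear genes.

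nad4 and cox1 read lower in trichome under each scaling that acts by level or rank, though by smaller differences than as deposited. A change of sign occurred only where the same shift was added to every gene. Centred on the 1139 genes above background on both arrays, the differences were -3.21 and -2.40. Measured from the hybridisation controls, nad4 was lower in trichome by a difference of -0.43, and cox1 was higher in trichome by 0.37. Both are within the spread of 0.95 between probe sets. Of the 18 control probe sets, 0 had a difference below that of nad4 and 14 had one below that of cox1. No control probe set read under 6.88 on either array, above both readings of cox1 and above the trichome reading of nad4, so their shift was not measured at those levels. With a lowess correction for mean level, which took a trend of -2.94 at the level of nad4 and -1.39 at that of cox1, the differences were -0.64 and -1.39. The one for nad4 is then also within the spread of 0.95. Quantile normalization gave -1.07 and -1.67. Measured from the median of the 31 plastid-encoded genes above background on both arrays, a scale added after the data were seen and set by genes that are themselves higher in pavement, nad4 and cox1 were higher in trichome, by 0.82 and 1.63.

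**Figure D5:**
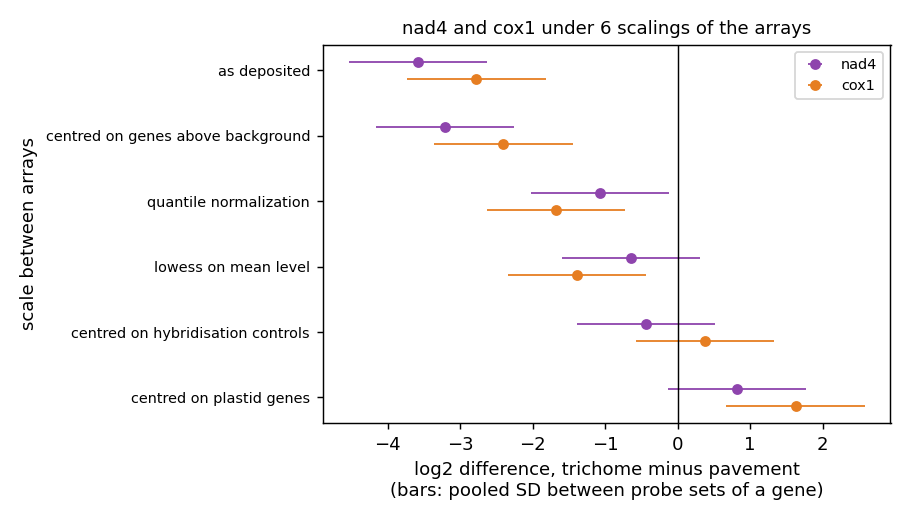
Log2 difference, trichome minus pavement (x axis), of nad4 (purple) and cox1 (orange) under 6 scalings of the arrays (y axis). Bars are the pooled SD of 0.95 between probe sets of a gene, not a replicate error. As deposited both differences lie far below 0, at -3.58 and -2.78; on the control scale they fall on either side of 0, and on the plastid scale both lie above it.

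Markers of mesophyll, the photosynthetic tissue under the epidermis, moved in the same direction as nad4 and cox1. Of 5 listed, 4 were measured, and they read 3.67 to 3.97 in trichome and 8.85 to 9.42 in pavement, with a summed linear signal of 56.8 and 2211. Of the 8 trichome markers 4 were measured, and only SIM was above background, at 2.79 in trichome and 2.06 in pavement. The summed linear signals of these 4 were 18.1 and 15.6. The 3 guard cell lineage markers read 2.62 to 2.96 in trichome and were at background in pavement, with sums of 21.2 and 12.1. The single measured markers of vasculature (SWEET11) and epidermis (ACR4) were at background on both arrays, so neither labelled cell type could be checked well by its own markers. The part of other cell types in the difference of nad4 and cox1 was not tested.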

How the data were processed

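The values used are log2 signals per probe set that the authors deposited, made with RMA per the submitters' processing notes. No source used here gives the version of RMA, the log base or which arrays were normalized together. That the scale is log2 was read off the span of the values. As deposited, the arrays do not share a distribution: the highest gene reading was 9.26 in trichome and 13.2 in pavement. The deposited fold differences are therefore not on a scale made common to the arrays by quantile normalization. Such normalization moved the difference of nad4 from -3.58 to -1.07 and that of cox1 from -2.78 to -1.67. Per the labels' protocols, RNA was amplified in 1 round and labelled by in vitro transcription.

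Of 22810 probe sets, the platform annotation of 2016 pairs 13513 with 1 gene and 503 with several, and does not list 8794. Of those with 1 gene, 13436 matched the RefSeq table of TAIR10.1 by identifier. None of the 16 mitochondrial identifiers did: 11 symbols matched by name, and 5 are older symbols, recognised from a hand-written list. No coordinates are given, since the probes' build is not stated. Probe sets of a gene were averaged, which gave 13356 genes. The 12 probe sets paired with several genes, of which at least 1 is mitochondrial, were kept apart, and 8 such plastid probe sets were not used.

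A gene was counted when its difference was at least 1 in log2 and its higher reading at least 2.05. No test was run, with 1 array per group. The lowess used a fraction of 0.3. Python 3.11.15, pandas 2.3.3 and statsmodels 0.14.6 were used, and the counting and lowess were tested on simulated data. The members and lists were chosen with earlier results of these data known. Genes named are nad4, cox1, every other singly named mitochondrial gene, all ndh genes, the 3 lowest and 3 highest other plastid-encoded genes, nuclear list genes above background and the 5 nearest genes to each member.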

Additional observations from a re-analysis of the deposited data

Results flagged for a closer look

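Signal also appeared in probe sets that the comparisons of named genes do not use, because the annotation pairs them with several genes. There were 12 such probe sets with at least 1 mitochondrion-encoded gene, and 11 of them were paired with a nuclear gene on chromosome 2 as well. Above the Bacillus control ceiling in pavement were 5, against 15.9% of all genes. Of these 5, 4 were 2-fold or more higher in pavement as deposited, or 3 when a background reading is set to the ceiling. Over all genes at or above 2.05 the share was 8.31%. Of the 12, 1 was above the ceiling in trichome. Those above it in pavement alone had to read higher there, so their direction is not read as a result.

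The brightest, paired with an ATP synthase gene of the mitochondrion and a nuclear gene, read 8.52 in pavement and 2.70 in trichome, a difference of -5.82. A probe set paired with a pair of mitochondrial ribosomal protein genes and no nuclear gene read 6.31 in pavement and was at background in trichome (2.14), which makes pavement at least 13.3-fold higher. A ribosomal protein probe set with a nuclear gene read 3.65 in pavement and 2.40 in trichome, and a further ATP synthase probe set with a nuclear gene read 2.94 and 1.67, at least 1.28-fold higher in pavement. Bright pavement signal with a dim trichome reading was thus not limited to nad4 and cox1 among probe sets for mitochondrial genes; which of the paired genes gave it was not tested.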

How the results depend on the processing

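No paired analysis was possible because each group has 1 array and the groups share a single replicate number; for the same reason none was left out in turn. nad4 and cox1 have 1 probe set each, so taking each probe set on its own gave no other value.

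Centred on the hybridisation controls, the difference was -0.43 for nad4 and 0.37 for cox1, 0 and 10 mitochondrion-encoded genes were 2-fold higher in pavement and trichome, against 2 and 0 as deposited, and their median was 3.03. The plastid counts were then 21 and 25, against 44 and 0, with a median of 1.44, and those of all genes 86 and 7881, against 679 and 97. That centring adds 3.15 to every difference, readings at background included, so its counts in trichome do not show a direction. With the lowess correction nad4 was at -0.64 and cox1 at -1.39, the mitochondrial count in pavement was 1, the plastid counts were 23 and 6 with a median of -0.47, and those of all genes 335 and 269. With quantile normalization nad4 was at -1.07 and cox1 at -1.67, and the counts of all genes were 346 and 374. Centred on the plastid-encoded genes above background, which was chosen after seeing the data, they were at 0.82 and 1.63. Centring on the 1139 genes above background on both arrays left both differences within 0.95 of the deposited ones and gave 390 genes higher in trichome. Readings at background raised to the ceiling gave 43 genes higher in trichome, and a 4-fold threshold 303 in pavement and 14 in trichome. Counting probe sets, with those paired with several genes, gave 6 mitochondrial ones higher in pavement. The cause of these changes was not tested otherwise. The trichome reading of cox1 lay 0.16 above the ceiling, so a lower level there was not measurable.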
